A study of Mus musculus with 19 samples.

Results

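The miR-30 family is a group of mouse microRNAs (miRNAs) made from the precursors mir-30a to mir-30e, and it is described here together with miR-384. Members were chosen by name: every mature miRNA listed as miR-30a, 30b, 30c, 30d, 30e or miR-384, with both arms and numbered copies. This gave 13 of the 1148 miRNA names in the deposited count tables, 6 of them 5p arms and 7 of them 3p arms. Small RNA was sequenced from the CA1 subregion of the hippocampus of wild-type mice, with the strain given as C57B/6JRj. The young vehicle group held 8 libraries from animals of 3 months given 18 g of cyclodextrin per L of water, and the aged vehicle group held 5 libraries from animals of 20 months given the same. The aged SAHA group held 6 libraries from animals of 20 months given 0.67 g of SAHA per L in cyclodextrin water. SAHA (vorinostat) inhibits histone deacetylases, the treatment was oral, and its length is stated for the aged animals as 4 weeks. All 3 groups therefore received cyclodextrin, and the labels name no sex, no batch and no pooling of animals. Nothing in the labels says that libraries came from separate animals, so p-values measure the spread between these libraries.

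A miRNA precursor is a hairpin that is cut into a 5p and a 3p strand, and one strand or both can be loaded into an Argonaute protein. The loaded strand finds messenger RNAs mainly through its seed, the bases near its 5′ end, and lowers their translation or stability. Members of a family share the seed and can therefore share targets. The 5p strands of the miR-30 family are abundant in many tissues, brain included. miR-384-5p carries the miR-30 seed on an otherwise different sequence, and it has been studied for its part in long-term potentiation in the hippocampus.

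The mature sequences are shown because they set which members can share targets and which are hard to tell apart by sequencing. They come from RefSeq on GRCm38.p6, the build that matches the mm10 coordinates of the study, and 9 of the 13 names matched. Capitals mark the seed, bases 2 to 8 from the 5′ end. The 4 matched 5p arms are as follows.
miR-30a-5p: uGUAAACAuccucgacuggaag
miR-30e-5p: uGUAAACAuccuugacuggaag
miR-30c-5p: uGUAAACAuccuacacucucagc
miR-384-5p: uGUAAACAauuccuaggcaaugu
They had the seed GUAAACA in common, and no other name of the 891 in the files that matched a RefSeq sequence had it.

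Outside the seed the sequences differed to different degrees. Counted from the 5′ end of miR-30a-5p, miR-30e-5p differed by the single substitution C13U, with 21 of 22 bases identical. miR-30c-5p shared 17 of 22 bases with miR-30a-5p, and miR-384-5p shared 12 of 22. The 3p arms fell into 3 seeds.
miR-30a-3p: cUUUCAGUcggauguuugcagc
miR-30e-3p: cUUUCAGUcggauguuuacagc
miR-30c-1-3p: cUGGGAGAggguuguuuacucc
miR-30c-2-3p: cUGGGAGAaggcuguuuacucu
miR-384-3p: aUUCCUAGaaauuguucacaau
miR-30a-3p and miR-30e-3p differed only by G18A. Counts of such near-identical pairs are uncertain, since the sources used here do not give the handling of reads that fit more than 1 name.

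The precursors lie at several loci of GRCm38. Mir30a (chr1:23272269-23272339, plus strand) lies in no other gene of the GENCODE annotation. Mir30c-2 (chr1:23291701-23291784, plus strand) lies 19361 bases further on, in an exon of the long noncoding RNA Gm27028. Mir30c-1 (chr4:120769534-120769622) and Mir30e (chr4:120772606-120772697) are 2983 bases apart on the minus strand, both in an intron of Nfyc, which encodes a subunit of a CCAAT-binding transcription factor. An annotated precursor named Mir30f overlaps Mir30e on the opposite strand. With no strand setting stated for the counting, it is not known whether their reads were kept apart. Mir384 (chrX:105344282-105344369, minus strand) lies in no other gene, 34712 bases from its neighbour Mir325.

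The hairpins of Mir30e and Mir384 are shown because the results below turn on the balance of their arms, which are in capitals, the 5p arm first.
Mir30e: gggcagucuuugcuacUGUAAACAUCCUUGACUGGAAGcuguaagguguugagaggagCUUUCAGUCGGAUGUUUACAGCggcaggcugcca
Mir384: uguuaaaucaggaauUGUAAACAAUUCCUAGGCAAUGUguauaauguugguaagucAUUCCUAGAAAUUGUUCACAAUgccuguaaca
The miR-30c-5p sequence is in both Mir30c-1 and Mir30c-2, so its counts cannot be assigned to a locus, while the 2 miR-30c 3p arms each belong to 1 precursor.

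Library depth, as reads assigned to miRNAs, was 3585489 to 6808281 in young vehicle, 4642434 to 5249168 in aged vehicle and 4211365 to 5410804 in aged SAHA. In all, 509 miRNAs had enough counts to be tested, and all 13 members were among them. The neuronal markers miR-124-3p, miR-9-5p, miR-128-3p, miR-138-5p, miR-218-5p, miR-137-3p and miR-153-3p were present in every group, and no listed marker miRNA separates CA1 from other hippocampal fields. A pair of libraries was left out in some of the fits below. Aged SAHA 1 had the lowest median correlation with its own group (r of 0.989, against 0.992 to 0.996 elsewhere). Young vehicle 6 lay far from the other 7 young libraries for 30 of the 509 tested miRNAs by Dixon's gap rule, against 1 to 9 for each of the other young libraries. Within their own groups aged vehicle 2 had 15 such miRNAs, aged SAHA 1 had 14 and aged vehicle 3 had 10.

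The family made up 6.72% ± 0.16 of all miRNA counts in young vehicle (SD, n = 8), 6.94% ± 0.29 in aged vehicle (SD, n = 5) and 7.17% ± 0.11 in aged SAHA (SD, n = 6). Nearly all of it came from the 5p arms, which held 6.45%, 6.63% and 6.88% of counts in these groups, while the 3p arms held 0.273%, 0.307% and 0.283%. These shares overlapped between the vehicle groups and are given with no test. The family's share in aged SAHA (6.99% to 7.30%) lay above all of young vehicle (6.51% to 6.92%) but overlapped aged vehicle (6.62% to 7.33%). That separation held only for shares of all counts, with no further scaling. With the 3 most abundant miRNAs out of the total the groups overlapped, at 10.7% in aged SAHA 5 and 10.8% in young vehicle 6. Of single tested miRNAs, 0.982% lay higher in all aged SAHA than in all young libraries. Levels below are CPM, counts relative to the library's total, scaled by the TMM factors of edgeR. They are not divided by length, since the matched mature strands all have 22 or 23 bases.

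miR-30a-5p was the leading member, with 33278 ± 2523 CPM (SD, n = 19), 48.0% of the family's counts and the 7th rank among all miRNAs. miR-30d-5p followed at 16922 ± 837 CPM, then miR-30e-5p at 9522 ± 580 CPM and miR-30c-5p at 5166 ± 177 CPM (SD, n = 19 for each). The ranges of these 4 members did not overlap between libraries: the lowest miR-30a-5p value was 29359 CPM and the highest miR-30d-5p value 18718 CPM. Their spread was small, with a coefficient of variation of 3.42% for miR-30c-5p and 7.58% for miR-30a-5p.

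A middle tier held miR-30e-3p at 1480 ± 129 CPM, miR-30a-3p at 830 ± 80.3 CPM, miR-30b-5p at 823 ± 53.6 CPM and miR-384-5p at 648 ± 110 CPM (SD, n = 19 for each). miR-30a-3p and miR-30b-5p did not differ beyond their spread. miR-30e-3p thus exceeded a pair of 5p arms, those of miR-30b and miR-384. miR-384-3p came next at 235 ± 18.2 CPM. The last members were miR-30d-3p at 102 ± 9.72 CPM, miR-30c-2-3p at 98.9 ± 9.67 CPM, miR-30c-1-3p at 90.0 ± 6.21 CPM and miR-30b-3p at 16.4 ± 4.02 CPM (SD, n = 19 for each). The ranges of miR-30d-3p, miR-30c-2-3p and miR-30c-1-3p overlapped. miR-30b-3p rested on 32 to 134 reads per library, the shallowest counts of the family, and had the widest spread (coefficient of variation 24.5%).

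**Figure D1:**
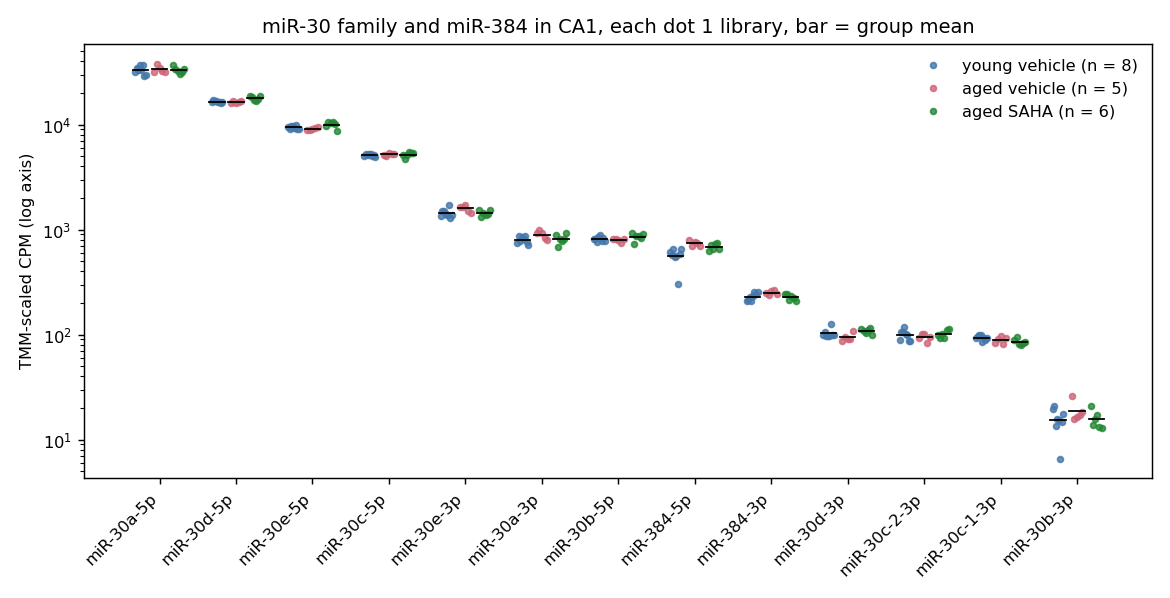
Levels of the 13 members in TMM-scaled CPM on a log axis, with 1 dot per library, a bar at each group mean, and members ordered by mean level. The first 4 members are all 5p arms and keep separate ranges, and 1 young library lies below the rest for miR-384-5p at 304 CPM.

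The first comparison asks how the family differed with age between the 2 vehicle groups. The 5p arms that make up most of the family were close between ages, and miR-384-5p, a minor member by level, had the largest difference. A call here means that the edgeR quasi-likelihood test gave a p under 0.05 after Benjamini-Hochberg adjustment over all 509 tested miRNAs, of which 2.16% were called for age. None of the 13 members was called, that is 0 of 13, while 3 had an unadjusted p under 0.05, as had 15.7% of all tested miRNAs. DESeq2 and limma-voom each called 1 member, miR-384-5p, against 3.93% and 5.11% of all tested miRNAs. The members' median log2 fold change was 0.02, against -0.00 over all tested miRNAs, and 7 of 13 were positive, as were 49.1% of all tested.

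miR-384-5p stood at 798, 694, 764, 754 and 699 CPM in aged vehicle libraries 1 to 5. In young vehicle its lowest, median and highest values were 304, 580 and 656 CPM. All 5 aged libraries thus lay above all 8 young ones, as was so in the higher direction for 5 of the 509 tested miRNAs (0.982%). The mean was 742 ± 44.1 CPM in aged vehicle (SD, n = 5) and 561 ± 111 CPM in young vehicle (SD, n = 8). The log2 fold change was 0.40 ± 0.12 (SE), with a 95% interval of 0.16 to 0.65, and the adjusted p of 0.0722 by edgeR missed the threshold.

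The young value of 304 CPM belongs to young vehicle 6, and the next lowest young library stood at 551 CPM. Without young vehicle 6 the log2 fold change was smaller, 0.31, and passed the threshold, with an adjusted p of 0.00529 by edgeR. In that fit 2.75% of tested miRNAs were called. Adjusted p was 0.0345 by DESeq2 and 0.0115 by limma-voom with quality weights on all libraries. Across the fits that each left out 1 library, the edgeR adjusted p ran from 0.00529 to 0.181. Bulk tissue was sequenced, so more cells of a type that holds miR-384 and more miR-384 per cell cannot be told apart.

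The other strand of the same hairpin, miR-384-3p, did not share the low value of young vehicle 6. It stood there at 253 CPM, the top of a young range of 207 to 253 CPM, and it averaged 251 ± 10.1 CPM in aged vehicle (SD, n = 5). Its log2 fold change with age was 0.12 ± 0.07 (SE), with a 95% interval of -0.02 to 0.26. miR-325-3p and miR-325-5p, the products of the neighbouring precursor on chromosome X, stood at 18.7 and 14.0 CPM in young vehicle and 18.6 and 15.6 CPM in aged vehicle, and neither was called.

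**Figure D2:**
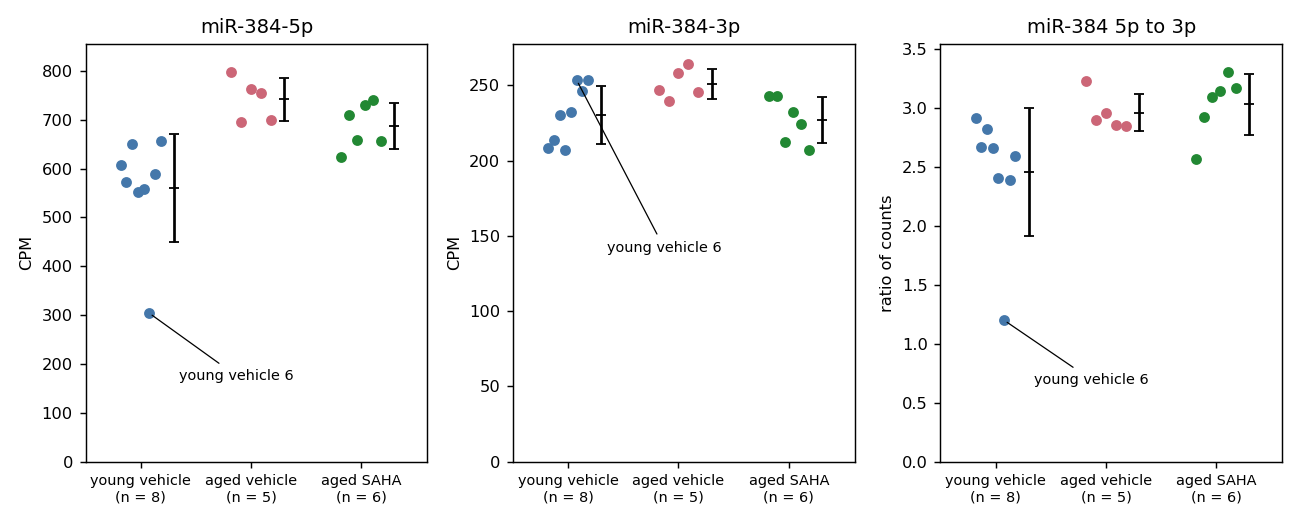
miR-384-5p (left) and miR-384-3p (middle) in TMM-scaled CPM and the ratio of their counts (right) in each library, with bars for the group mean ± SD. Young vehicle 6 is low for miR-384-5p (304 CPM) and for the ratio (1.20) but not for miR-384-3p (253 CPM), and the aged vehicle libraries lie above all young ones for miR-384-5p.

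Of the abundant 5p arms, miR-30a-5p had 31404, 38011, 34247, 32164 and 31904 CPM in aged vehicle libraries 1 to 5. Its lowest, median and highest values in young vehicle were 29359, 33027 and 36606 CPM, and the groups overlapped widely. The log2 fold change was 0.02 ± 0.07 (SE), and its 95% interval of -0.12 to 0.16 bounds the difference that these libraries leave possible. The intervals were -0.11 to 0.08 for miR-30d-5p, -0.16 to 0.06 for miR-30e-5p and -0.08 to 0.12 for miR-30c-5p. For miR-30b-5p the interval was -0.16 to 0.09.

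The 3p arms of miR-30a and miR-30e, which differ by 1 base, had positive values for age. miR-30e-3p had 1656, 1642, 1728, 1514 and 1444 CPM in aged vehicle libraries 1 to 5, and a lowest, median and highest value of 1286, 1396 and 1708 CPM in young vehicle. Only 1 aged library lay above all young ones, and the log2 fold change was 0.15 ± 0.07 (SE). That of miR-30a-3p was 0.17 ± 0.07 (SE), and both had an adjusted p of 0.262 by edgeR. The other 3p arms ranged from -0.13 ± 0.08 for miR-30d-3p to 0.27 ± 0.19 for miR-30b-3p, with -0.06 ± 0.07 for miR-30c-1-3p and -0.07 ± 0.09 for miR-30c-2-3p. The mean of miR-30b-3p in aged vehicle leaned on aged vehicle 1, at 26.2 CPM against 15.6 to 18.2 CPM in the other 4 libraries. Its age value of 0.27 became 0.14 without aged vehicle 1 and 0.16 without young vehicle 6. That of miR-30d-3p became -0.08 without either library.

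The second comparison asks how the family differed between the SAHA and vehicle groups of aged mice. Of the 5p arms 3 of 6 had positive values under SAHA (miR-30d, miR-30e and miR-30b), and of the 3p arms 2 of 7 did (miR-30d and miR-30c-2). The values ran from -0.26 ± 0.20 for miR-30b-3p (SE, adjusted p 0.55 by edgeR) to 0.21 ± 0.08 for miR-30d-3p (SE, adjusted p 0.132 by edgeR). edgeR called 0 of 13 members, against 4.32% of all tested miRNAs. An unadjusted p under 0.05 was found for 4 members and for 19.4% of all tested miRNAs. DESeq2 called 2 members, miR-30d-5p and miR-30e-5p, against 7.66% of all tested miRNAs, and limma-voom called 0, against 9.23%. The members' median was -0.01, the same as over all tested miRNAs, and 5 of 13 were positive, as were 48.7% of all tested. The 7 neuronal marker miRNAs had a summed level of 72535 to 78485 CPM in aged SAHA against 85117 to 90506 CPM in aged vehicle. Of the 7, edgeR called 1 lower, miR-128-3p, and 0 had positive values, with -0.01 ± 0.06 (SE) for miR-124-3p. The part of these markers in the values below was not tested.

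miR-30d-5p stood at 16197, 16797, 15986, 16338 and 16645 CPM in aged vehicle libraries 1 to 5. Its lowest, median and highest values in aged SAHA were 16657, 17948 and 18718 CPM, so 5 of 6 SAHA libraries lay above all vehicle libraries. The log2 fold change was 0.12 ± 0.05 (SE), with an adjusted p of 0.137 by edgeR and 0.00987 by DESeq2. With 1 library left out in turn the edgeR adjusted p was 0.0764 to 0.362.

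miR-30e-5p had 8793, 8860, 9086, 9197 and 9476 CPM in aged vehicle libraries 1 to 5 and a lowest, median and highest value of 8789, 10193 and 10626 CPM in aged SAHA. Here too 5 of 6 SAHA libraries lay above all vehicle libraries, and the sixth, aged SAHA 6, lay below them all. The log2 fold change was 0.14 ± 0.06 (SE), with an adjusted p of 0.137 by edgeR and 0.0439 by DESeq2. miR-30b-5p showed the same split, with 5 SAHA libraries above and aged SAHA 2 below all vehicle libraries, and a log2 fold change of 0.11 ± 0.06 (SE, adjusted p 0.388 by edgeR). The abundant miR-30a-5p and miR-30c-5p gave 95% intervals of -0.16 to 0.14 and -0.11 to 0.10.

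Among the 3p arms, miR-30d-3p had 87.0, 94.1, 90.4, 90.1 and 108 CPM in aged vehicle libraries 1 to 5 and a lowest, median and highest value of 99.6, 110 and 115 CPM in aged SAHA. Both arms of miR-30d were therefore higher on average under SAHA, the 3p arm with a log2 fold change of 0.21 ± 0.08 (SE, adjusted p 0.132 by edgeR). The arms of miR-30e differed in sign: miR-30e-3p had a value of -0.15 ± 0.07 (SE, adjusted p 0.239 by edgeR), and 4 of 6 SAHA libraries lay below all vehicle libraries. miR-30a-3p and miR-384-3p had values of -0.14 ± 0.08 and -0.14 ± 0.07, miR-30c-1-3p -0.07 ± 0.07 and miR-30c-2-3p 0.11 ± 0.09 (0.065 without aged vehicle 4). The value of miR-30b-3p, -0.26, became -0.10 without aged vehicle 1. miR-384-5p, at 687 ± 46.7 CPM in aged SAHA (SD, n = 6), had a value of -0.11 ± 0.13 (SE) with a 95% interval of -0.37 to 0.15.

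**Figure D3:**
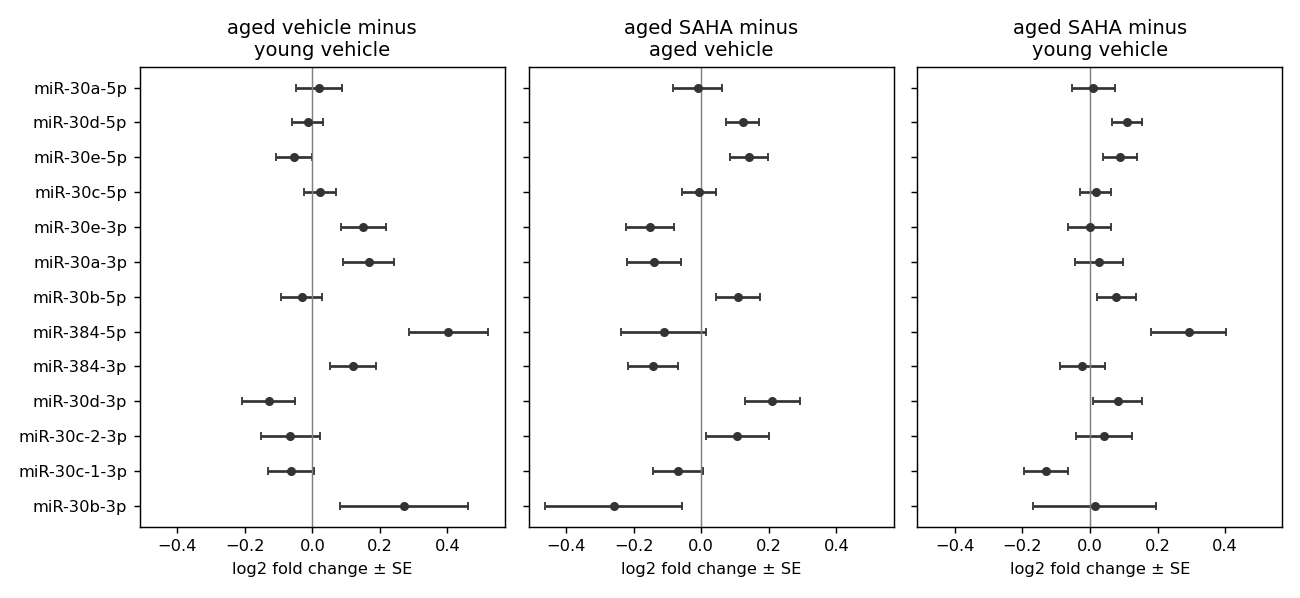
Log2 fold changes of the 13 members in the 3 comparisons, as points with bars of ± 1 SE from the edgeR fit, in order of mean level. The value of miR-384-5p for age (0.40 ± 0.12) is the largest of the 39, and no member passed the adjusted threshold in any of the 3 panels.

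The third comparison sets aged SAHA against young vehicle, and it shares libraries with both comparisons above. It had the most calls of the 3 comparisons, 13.9% of tested miRNAs, and again 0 of 13 members by edgeR. An unadjusted p under 0.05 was found for 2 members and for 32.8% of all tested miRNAs, and DESeq2 and limma-voom called 1 member each, miR-30d-5p and miR-384-5p respectively, against 17.7% and 16.3% of all tested miRNAs. All 6 of the 5p arms had positive values, from 0.01 to 0.29, while the 3p arms had values from -0.13 to 0.08, 4 of 7 of them positive. Over the 13 members the median was 0.03, against -0.03 over all tested miRNAs, and 10 of 13 were positive, as were 45% of all tested.

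miR-384-5p had a lowest, median and highest value of 624, 684 and 741 CPM in aged SAHA, where 5 of 6 libraries lay above all young ones. Its log2 fold change was 0.29 ± 0.11 (SE), with an adjusted p of 0.0854 by edgeR that became 0.0314, at a log2 fold change of 0.20, without young vehicle 6. In that fit 15.9% of tested miRNAs were called. For miR-30d-5p the log2 fold change was 0.11 ± 0.04 (SE, adjusted p 0.0869 by edgeR), and 5 of 6 SAHA libraries lay above all young ones. It passed the edgeR threshold with DESeq2 size factors (adjusted p 0.0407), with library size only (0.0131) and without aged SAHA 4 (0.0294). The share of all tested miRNAs called in these fits was not counted, and in the main fit it was 13.9%. miR-30c-1-3p had the lowest value of the family, -0.13 ± 0.07 (SE, adjusted p 0.164 by edgeR).

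The balance of the 2 strands of a hairpin can be followed as the ratio of 5p to 3p counts in a library, which needs no scaling between libraries. Over all 19 libraries this ratio averaged 166 ± 13.9 for miR-30d, 53.8 ± 17.9 for miR-30b, 40.3 ± 3.22 for miR-30a, 6.49 ± 0.77 for miR-30e and 2.77 ± 0.46 for miR-384 (SD, n = 19 for each). The family thus ran from hairpins read almost only from the 5p strand to miR-384, where the 5p strand held 72.9% of the reads of both strands on average. miR-30c-5p was 57.7 ± 5.08 times miR-30c-1-3p and 52.6 ± 4.70 times miR-30c-2-3p, but since it has a pair of loci these are not ratios of 1 hairpin.

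Log2 ratios were tested with limma over the 152 miRNA names that had both arms among the tested miRNAs, 5 of them members. Under SAHA, miR-30e moved towards its 5p arm. The ratio was 5.31, 5.40, 5.26, 6.07 and 6.56 in aged vehicle libraries 1 to 5, and its lowest, median and highest values in aged SAHA were 5.70, 7.16 and 7.93. The groups overlapped through aged SAHA 6 (5.70) and aged SAHA 1 (6.43), and the means were 5.72 ± 0.57 (SD, n = 5) and 7.01 ± 0.82 (SD, n = 6).

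The log2 difference of the miR-30e ratio was 0.29 ± 0.08 (SE), with an adjusted p of 0.0215 by limma. This was the 1 call among the 5 member ratios, and 13.8% of the 152 ratios were called in this comparison. Of the 152 ratios, 20 were called higher (13.2%) and 1 lower (0.658%) under SAHA, so a move towards the 5p arm was the common direction. The call ended without aged vehicle 1 (adjusted p 0.0724), aged vehicle 2 (0.0512), aged vehicle 3 (0.0797), aged SAHA 2 (0.0590) or aged SAHA 4 (0.0506). It also ended in a fit of only the 2 groups compared (0.0566), where the limma estimate of the spread rests on fewer libraries.

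For the other ratios under SAHA the log2 differences were 0.13 ± 0.07 for miR-30a, 0.36 ± 0.21 for miR-30b, -0.09 ± 0.08 for miR-30d and 0.03 ± 0.16 for miR-384 (SE), none called by limma. That of miR-30a became 0.076 without aged SAHA 2. That of miR-30b became 0.24 with an adjusted p of 0.514 by limma without aged vehicle 1, whose ratio was 30.8. It became 0.42 with an adjusted p of 0.0435 by limma when aged SAHA 1 and young vehicle 6 were both left out. That alternative was added once the values were known. The share of all ratios called in it was not counted, and on all libraries that share was 13.8%. Over all 152 ratios the median difference was 0.06, with 89 positive, and 4 of the 5 member ratios were positive.

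Between the ages, limma called 0 of the 152 ratios (0%), while 17 of 152 (11.2%) and 3 of the 5 members had an unadjusted p under 0.05. The miR-30e ratio was 6.58 ± 0.44 in young vehicle (SD, n = 8), and its log2 difference in aged vehicle was -0.21 ± 0.08 (SE, adjusted p 0.374 by limma). For miR-30a the difference was -0.14 ± 0.06 (SE, adjusted p 0.399 by limma). For miR-384 it was 0.31 ± 0.15 (SE, adjusted p 0.424 by limma), with ratios of 3.23, 2.90, 2.96, 2.86 and 2.85 in aged vehicle libraries 1 to 5 and a lowest, median and highest value of 1.20, 2.63 and 2.91 in young vehicle. The value of 1.20 is that of young vehicle 6, and without it the difference was 0.17 with an adjusted p of 0.375 by limma. The age and SAHA values of miR-30e share the aged vehicle libraries, so their opposite signs are not independent of each other.

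In aged SAHA against young vehicle, 10.5% of ratios were called and 0 of 5 members by limma, with 1 member and 44 of all 152 ratios (28.9%) at an unadjusted p under 0.05. The miR-384 ratio averaged 3.03 ± 0.26 over the aged SAHA libraries (SD, n = 6), and the young vehicle libraries averaged 2.46 ± 0.54 (SD, n = 8). The log2 difference was 0.34 ± 0.14 (SE, adjusted p 0.105 by limma). Without young vehicle 6, whose ratio was 1.20, it was 0.20 with an adjusted p of 0.0456 by limma. The other 7 young libraries ranged from 2.39 to 2.91. In the fit without young vehicle 6 the share of all ratios called was not counted. On all libraries it was 10.5%.

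**Figure D4:**
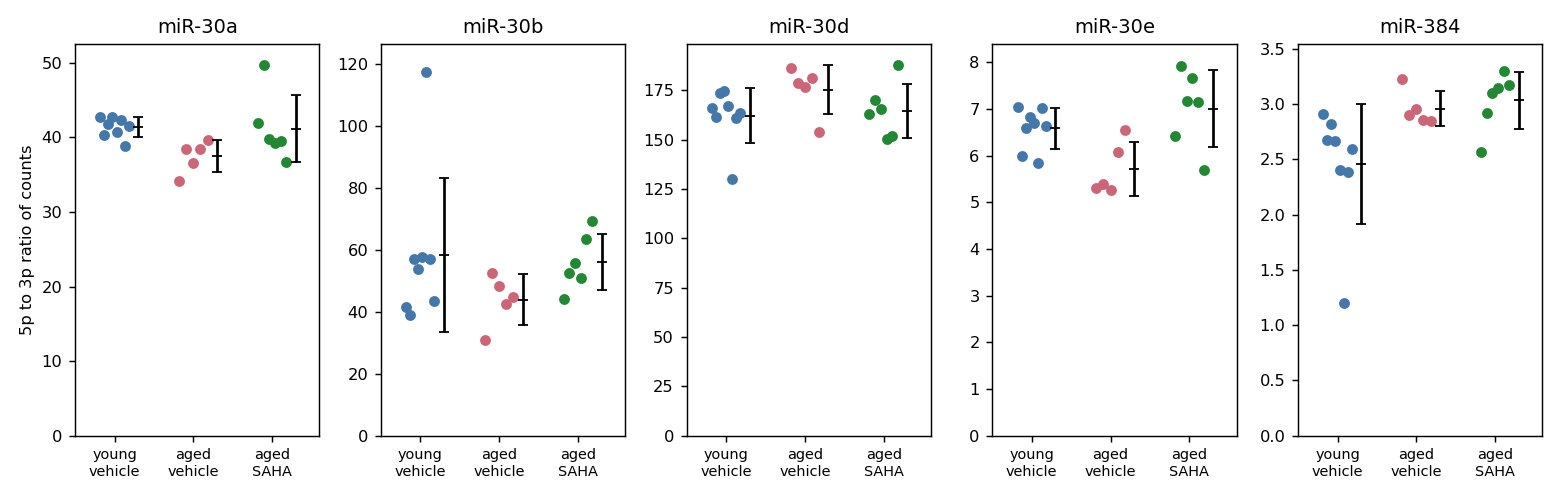
Ratio of 5p to 3p counts for the 5 members with both arms paired by name, with 1 dot per library and bars for the group mean ± SD, each panel with its own axis from 0. For miR-30e 4 of the aged SAHA libraries lie above all aged vehicle libraries, and the library at 1.20 for miR-384 and 117 for miR-30b is young vehicle 6.

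How the members varied together was described by Pearson correlations of log2 CPM after the group means were removed (n = 19 libraries, no test, and all points of a library share its depth and scaling). The highest value was 0.77, between miR-30a-3p and miR-30e-3p, the pair that differs by 1 base and lies on different chromosomes. Their 5p partners, which also differ by 1 base, gave 0.00. Within hairpins the strands gave 0.68 for miR-30a, 0.30 for miR-30b, -0.12 for miR-30e, -0.03 for miR-30d and -0.21 for miR-384. Without young vehicle 6, left out once the values were known, these were 0.65, 0.22, -0.44, 0.08 and 0.38. The signs for miR-30d and miR-384 thus depended on that library. The neighbours on chromosome 1, miR-30a-5p and miR-30c-2-3p, gave 0.62, and the neighbours in the Nfyc intron, miR-30e-5p and miR-30c-1-3p, gave 0.13. The value of 0.62 was not particular to neighbours. miR-30a-5p gave 0.62 with miR-30e-3p on chromosome 4 and 0.59 with miR-30d-5p.

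miR-384-5p gave 0.71 with miR-30b-3p and -0.69 with miR-30d-3p, a set of 3 members for which young vehicle 6 stood at an end of the young range. With young vehicle 6 left out before the group means were removed, these became -0.03 and -0.19. Not all values of miR-384-5p shrank in that way. With miR-30a-5p it went from -0.55 to -0.64, and with miR-30b-5p from -0.03 to -0.62. For the arms of miR-384 the correlation without removal of group means was 0.06 over 19 libraries and 0.54 without young vehicle 6. The arms of miR-30d moved from 0.39 to 0.58 in the same way.

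**Figure D5:**
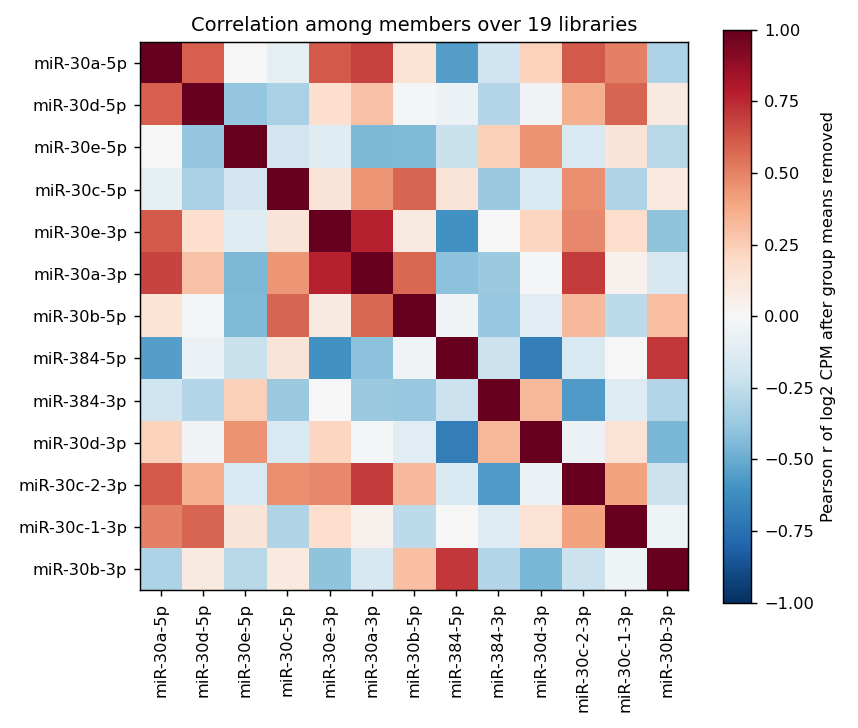
Pearson correlations of log2 CPM between the 13 members over 19 libraries after removal of group means, with the colour scale from -1 to 1 and members in order of mean level. The warmest square off the diagonal joins miR-30a-3p and miR-30e-3p (0.77). miR-384-5p is blue against miR-30d-3p (-0.69), miR-30e-3p (-0.60) and miR-30a-5p (-0.55). Without young vehicle 6 these values of miR-384-5p became -0.19, -0.10 and -0.64.

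Outside the family, the tested miRNAs most like miR-384-5p over the 19 libraries were miR-425-5p (r of 0.89), miR-411-3p (0.88), miR-425-3p (0.84), miR-370-3p (0.81) and miR-146b-5p (0.77), out of 496 candidates. Without young vehicle 6 these were 0.60, 0.56, 0.40, 0.57 and 0.40, so the likeness rested largely on that library. Those most like miR-30a-5p were miR-181b-1-3p (0.77), miR-21-5p (0.74), miR-27b-3p (0.70), miR-151-3p (0.70) and miR-25-3p (0.68). Without young vehicle 6 they were 0.75, 0.72, 0.68, 0.66 and 0.65.

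For comparison, 19 miRNAs outside the family that are known for roles in synaptic plasticity and memory were tested. edgeR called 1 of 19 for age and 1 of 19 for SAHA, both times miR-181c-5p, which was lower in aged vehicle than in young vehicle (-0.42 ± 0.07) and higher in aged SAHA than in aged vehicle (0.31 ± 0.08). Of all tested miRNAs 2.16% were called for age and 4.32% for SAHA. In aged SAHA against young vehicle 0 of 19 were called, against 13.9% of all tested miRNAs. miR-132-3p, an activity-induced miRNA, and miR-134-5p, a regulator of dendritic spine size, had age values of 0.08 ± 0.08 and -0.07 ± 0.08 and SAHA values of -0.18 ± 0.08 and 0.07 ± 0.09 (SE). The list's median log2 fold change was -0.07 in the age comparison, 0.01 in the SAHA comparison and -0.07 in the third. Over all tested miRNAs the medians were -0.003, -0.008 and -0.028 in the same order.

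The marker miRNAs are those of cell types that CA1 tissue can hold. The summed level of the 7 neuronal markers was 84147 to 94447 CPM over the young vehicle libraries, 85117 to 90506 CPM over those of aged vehicle and 72535 to 78485 CPM over those of aged SAHA. On this sum the SAHA libraries all lay below the rest, and 1 of 7 markers, miR-128-3p, was called lower in both SAHA comparisons. The sum weights markers by level, and miR-124-3p was close between aged SAHA and aged vehicle (5516 and 5551 CPM, -0.01 ± 0.06, SE). Of the 7 markers 0 had positive values for SAHA. For age 0 of 7 were called by edgeR. The 4 oligodendrocyte markers summed to 3332 to 4504, 4047 to 5622 and 3736 to 8098 CPM in these groups, with 0, 0 and 1 of 4 called in the 3 comparisons, the last being miR-219-2-3p, higher in aged SAHA than in young vehicle.

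The 6 microglial and immune markers summed to 1351 to 1475, 1488 to 1819 and 1377 to 2533 CPM in the same order of groups. For age miR-146a-5p was called higher and miR-150-5p lower, for SAHA 0 of 6 were called, and in aged SAHA against young vehicle 3 were called higher and miR-150-5p lower. Of the 4 erythrocyte and the 4 endothelial and mural markers 0 were called in the 3 comparisons. The 5 tested choroid plexus and ciliated epithelium markers also gave 0 calls in each. The muscle marker miR-1a-3p was called higher in both SAHA comparisons, from a summed muscle level of at most 134 CPM. No listed marker was at 0 in all libraries, and the part of these cell types in the values of the miR-30 family and miR-384 was not tested.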

How the data were processed

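Small RNA libraries (TruSeq, from 1 µg of total RNA per the labels) of 19 CA1 samples were used. The deposited values are counts, whole numbers per mature miRNA name, which the authors did not normalise. The submitters' processing notes list the mm10 build and, as tools, HTSeq, STAR, cutadapt and CASAVA 1.8.2. Settings for strand and for reads with several matches are not given in the sources used here. The 4 HTSeq summary lines were all 0 and left out. Reads carry no molecular identifiers.

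Members and lists were chosen with earlier results of these data known. All members are named, together with list members that were called or that a result turns on, neighbours of Mir384, and for miR-30a-5p and miR-384-5p the 5 non-members with the highest r.

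Counts were filtered (filterByExpr, minimum count 10, minimum total 15, 509 of 1148 kept), and tested over 19 libraries in 3 groups, after TMM scaling, with the robust quasi-likelihood F test of edgeR 4.0.16 (R 4.3.3, Benjamini-Hochberg over 509). SE is the log2 fold change divided by the square root of F. Arm ratios, log2 of 5p over 3p counts with 0.5 added to each, were fitted with limma 3.58.1 (trend, robust, 152 ratios). Both tests were also run on simulated counts, drawn independently for each miRNA and with no library set apart. The outcome is not given here, and no result rests on it. No library was a copy of another of its own group (chi-square over degrees of freedom 18.2 to 213 for the 53 within-group pairs). Pairs between groups were not compared in this way. Alternatives were other scalings and filters, DESeq2 1.42.0, limma-voom, fewer libraries and the replicate number as a block.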

Additional observations from a re-analysis of the deposited data

Results flagged for a closer look

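Across 54 combinations of a member or arm ratio with a group, 8 had a library far from the others of its group by Dixon's test. Chance flags about 1 in 20 of independent combinations, but arm ratios are made of the members' own counts, so these 54 are not independent. Flags were not particular to the family. Over the CPM of all 509 tested miRNAs, Dixon's rule flagged 30 for young vehicle 6, 3 for aged vehicle 1 and 2 for aged vehicle 5. It also flagged 15 for aged vehicle 2, 14 for aged SAHA 1 and 10 for aged vehicle 3. The 8 flags are therefore not read as an excess in the family. Young vehicle 6 accounted for 5 of the 8. It had 304 CPM of miR-384-5p (next lowest young library 551) and 125 CPM of miR-30d-3p (next highest 106). Its 5p to 3p ratio was 1.20 for miR-384 (next 2.39), 117 for miR-30b (next 57.6) and 130 for miR-30d (next 161). Aged vehicle 1 accounted for another 2, with 26.2 CPM of miR-30b-3p (next 18.2) and a miR-384 ratio of 3.23 (next 2.96). Aged vehicle 5 had a miR-30d ratio of 154 (next 177). Whether these values come from the animal or from the library was not tested.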

How the results depend on the processing

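Most values kept their direction and their side of the threshold: 811 of 884 alternative values for the 39 fold changes and 258 of 277 for the 15 arm ratios. The number of members called for age was 1 in place of 0 by DESeq2, by limma-voom and with aged SAHA 1 and young vehicle 6 left out (miR-384-5p each time), and 0 to 1 with 1 library left out. For SAHA DESeq2 gave 2. For aged SAHA against young vehicle it was 1 under several settings. The member was miR-30d-5p with DESeq2 size factors, library size only, the filter of CPM of 10 in 5 libraries, DESeq2 and the 3 most abundant miRNAs left out. It was miR-384-5p with limma-voom, the replicate block and both libraries left out, and 0 to 1 members were called with 1 library left out. In this comparison 17.7% of all tested miRNAs were called by DESeq2, 16.3% by limma-voom and 15.8% with both libraries left out. For the other scalings, the filter, the 3 most abundant left out and the block that share was not counted. In the main fit it was 13.9%. With both libraries left out the share for age was 3.55%. The 1 arm ratio called for SAHA became 2 with both libraries left out, 0 with only the 2 groups compared and 0 to 1 with 1 library left out. For aged SAHA against young vehicle it was 1 with both libraries left out and 0 to 1 with 1 library left out. The share of all ratios called was not counted in these fits. The causes were not tested. With the 3 most abundant miRNAs out of the total, the family held 10.5%, 10.6% and 11.0% of counts in young vehicle, aged vehicle and aged SAHA, by construction of the smaller total.

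Changes of sign, 57 among fold changes and 10 among arm ratios, were all of values not called on either side, and their cause was not tested. For age they were miR-30b-5p (0.0028) and miR-30d-5p (0.020) with library size only and miR-30d-5p (0.0016) with the 3 most abundant left out. For SAHA, miR-30a-5p was 0.0044 with the 3 most abundant left out and 0.0050 with only the 2 groups compared. miR-30c-5p was 0.0032 with DESeq2 size factors and by DESeq2, 0.0031 with library size only, 0.0073 with the 3 most abundant left out and 0.0074 with only the 2 groups compared. For aged SAHA against young vehicle, limma-voom gave -0.0054 for miR-30a-5p and -0.10 for miR-30b-3p. Leaving out aged SAHA 1 and young vehicle 6 gave -0.0022 and -0.20 for these, 0.020 for miR-30e-3p and -0.018 for the miR-30d ratio. miR-30e-3p was 0.021 with DESeq2 size factors and by DESeq2, 0.044 with library size only, 0.012 with no filter, 0.0069 with the CPM filter, 0.029 with the 3 most abundant left out and 0.031 with only the 2 groups compared. miR-384-3p was 0.018, 0.0074 and 0.0085 with library size only, the 3 most abundant left out and only the 2 groups compared.

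Leaving out 1 library in turn gave ranges that crossed 0. For age they were -0.015 to 0.063 for miR-30a-5p, -0.047 to 0.015 for miR-30b-5p and -0.025 to 0.0097 for miR-30d-5p. For SAHA they were -0.044 to 0.044 for miR-30a-5p and -0.018 to 0.018 for miR-30c-5p. For aged SAHA against young vehicle they were -0.014 to 0.071 for miR-30a-3p, -0.023 to 0.051 for miR-30a-5p, -0.098 to 0.085 for miR-30b-3p, -0.023 to 0.038 for miR-30e-3p and -0.045 to 0.0016 for miR-384-3p. The arm ratios in that comparison ran from -0.068 to 0.019 for miR-30a, -0.057 to 0.17 for miR-30b and -0.021 to 0.050 for miR-30d.

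Libraries of different groups share replicate numbers, but 16 same-numbered pairs had correlations of -0.317 to 0.314, with 4 above 0.1 and 4 best with their own number, so the numbers were not taken as pairs. With the replicate number as a block, miR-384-5p was called for aged SAHA against young vehicle (log2 fold change 0.38, adjusted p 0.0364), and the miR-30e ratio stayed called for SAHA. Signs changed under the block for miR-30a-5p for age (-0.022) and, in aged SAHA against young vehicle, for miR-30a-3p (-0.016), miR-30a-5p (-0.043), miR-30c-2-3p (-0.019), miR-384-3p (0.019) and the miR-30b ratio (-0.033). Depth limits miR-30b-3p most, at 32 to 134 reads per library.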
